A study of Mus musculus with 4 samples.

Results

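The 6465 promoters described here had no accessible region listed at either stage in mouse limb cells. They were found among 20351 promoters of protein-coding genes on chromosomes 1 to 19, of which they made up 31.8%. The rule took a window of 1 kb on each side of a gene's start site, defined as the outer end of the gene by its strand. A promoter was called closed when neither deposited peak list had a row that overlapped this window. In ATAC-seq (assay for transposase-accessible chromatin by sequencing) the Tn5 transposase inserts adaptors into open DNA, and peaks mark where insertions pile up. "Closed" therefore means that no peak was listed, and the depth behind the lists is unknown.

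The data came from fore- and hindlimbs of wild-type embryos on 2 embryonic days, E10.5 and E11.5, with a pair of replicates for either stage, 4 samples in all. The titles give E10.5, while the treatment protocol writes E10 for the earlier stage. Limbs of both kinds were processed together as suspensions of whole-limb cells, so a promoter open in few cells can lack a peak. The study concerns when En1, a homeobox gene of the ventral limb ectoderm, is expressed. Each stage has 1 peak list for both replicates. No replicate spread could be set against any value below, and the values describe these lists. The 95% intervals are Wilson intervals. They cover counting error only and treat neighbouring promoters as independent.

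A promoter is the stretch around a gene's start where transcription machinery assembles. Promoters of broadly used genes tend to lie in CpG islands, stretches rich in the dinucleotide CG that escape DNA methylation. Promoters of genes used in 1 cell type often lack such islands and become accessible when tissue-specific factors bind. Large families such as odorant receptors, hair keratins and defensins arose by tandem duplication, so their members lie side by side.

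The upstream sequences of 4 closed promoters and 1 open promoter show the range of base composition. Each runs 5′ to 3′ over the 250 bases before a RefSeq start site on assembly GRCm38.p6, which has mm10 coordinates, and capitals mark every CG. Olfr1204, Krt31 and Defa2 are the olfactory receptor, the keratin and the defensin whose nearest peak was farthest away among those with a sequence. Erfl had the highest CpG ratio of the closed promoters with a sequence. Lmx1b, a homeobox gene of dorsal limb mesenchyme, is the open promoter.
Olfr1204: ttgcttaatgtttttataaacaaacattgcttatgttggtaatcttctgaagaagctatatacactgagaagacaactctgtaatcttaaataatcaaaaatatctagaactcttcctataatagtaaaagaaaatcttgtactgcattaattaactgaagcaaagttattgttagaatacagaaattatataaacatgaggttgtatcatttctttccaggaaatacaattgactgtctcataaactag
Krt31: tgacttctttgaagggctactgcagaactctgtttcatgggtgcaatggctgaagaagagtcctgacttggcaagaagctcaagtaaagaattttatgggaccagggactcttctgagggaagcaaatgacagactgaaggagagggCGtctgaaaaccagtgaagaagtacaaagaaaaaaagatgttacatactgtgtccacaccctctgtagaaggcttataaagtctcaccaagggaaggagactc
Defa2: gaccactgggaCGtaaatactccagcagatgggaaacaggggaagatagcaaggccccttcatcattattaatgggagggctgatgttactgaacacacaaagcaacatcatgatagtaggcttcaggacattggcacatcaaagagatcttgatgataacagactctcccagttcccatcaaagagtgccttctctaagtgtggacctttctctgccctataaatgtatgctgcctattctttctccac
Erfl: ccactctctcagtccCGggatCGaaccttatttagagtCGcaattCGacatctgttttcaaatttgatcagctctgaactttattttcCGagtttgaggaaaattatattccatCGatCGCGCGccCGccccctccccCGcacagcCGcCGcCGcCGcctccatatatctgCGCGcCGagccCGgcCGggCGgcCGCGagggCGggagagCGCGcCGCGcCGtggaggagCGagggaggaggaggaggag
Lmx1b: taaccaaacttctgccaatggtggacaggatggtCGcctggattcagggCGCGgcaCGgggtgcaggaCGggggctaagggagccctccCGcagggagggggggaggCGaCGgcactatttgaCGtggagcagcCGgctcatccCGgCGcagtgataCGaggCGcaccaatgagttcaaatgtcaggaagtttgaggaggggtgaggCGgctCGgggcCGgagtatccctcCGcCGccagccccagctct

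The Olfr1204 sequence, at chr2:88851702-88851951 on the plus strand, held 0 CG and was 27.2% G and C. The Krt31 sequence, at chr11:100050552-100050801 on the minus strand, held 1 CG and was 44.8% G and C. The Defa2 sequence, at chr8:21378267-21378516 on the plus strand, also held 1 CG, with 45.2% G and C. Erfl, at chr7:24944772-24945021 on the minus strand, stood apart among the closed sequences shown, with 30 CG and 61.6% G and C. Lmx1b, at chr2:33641099-33641348 on the minus strand, held 19 CG and was 65.2% G and C. Its start site lay in peaks of both lists, with deposited signals of 22123 (E10.5) and 633 (E11.5). The signal is the authors' value for a whole peak and grows with peak width.

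Closed promoters were set beside 3 other classes. Peaks of both lists lay in the windows of 12387 promoters (60.9%), peaks of the E10.5 list alone in 1421 (6.98%) and peaks of the E11.5 list alone in 78 (0.383%). The lists differed in length, with 99427 peaks for E10.5 against 37548 for E11.5. Taken singly, the E10.5 list left 6543 windows (32.2%) without a peak and the E11.5 list left 7886 (38.7%). The 6465 closed promoters made up 31.8% of all (95% interval 31.1 to 32.4). That percentage is the background for every family count that follows, and since it was set by the same peaks as the rule, nothing is read from the distance of a family to it. The members nearest the 1 kb limit show what it separates. Outside it were Myl3, a ventricular and slow-muscle myosin light chain, and S100a7a, a calcium-binding protein of skin, both 1003 bp from an E10.5 peak. Inside it were Prkar1a, a regulatory subunit of protein kinase A, at 998 bp, and Spink2 and Vpreb1, each at 997 bp. The nearest peak lay 1000 to 1500 bp away for 346 closed promoters, and 500 to 1000 bp away for 458 open ones.

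The labelled tissue was set beside marker lists. An open promoter did not separate limb genes from those of every other tissue, since 0 of 11 neuronal genes were closed either. Of 20 limb mesenchyme genes, 0 were closed, with an upper interval bound of 16.1%. They include Prrx1, Tbx5, Hand2 and Msx1. Of 10 limb ectoderm genes, 1 was closed: Trp63, an epithelial regulator, whose outer start was 63.1 kb from a peak and whose gene body held peaks. Of 7 muscle precursor genes 0 were closed, with an upper bound of 35.4%. In the endothelium and blood list 2 of 10 were closed, Pecam1 at 5.07 kb and Tek at 13.4 kb from the nearest peak. Their gene bodies held 6 and 5 E10.5 peaks. In the cartilage list 2 of 9 were closed, Matn1 at 2.51 kb and Col10a1, a collagen of hypertrophic cartilage, at 28.0 kb. Of 11 housekeeping genes, 1 was closed: Ywhaz, a 14-3-3 protein, whose outer start lay 8.03 kb from a peak with an E10.5 signal of 14968.

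Sensory receptors supplied the largest closed group of the listed families. Most of them detect odours, pheromones and tastes in the nose, the vomeronasal organ and the tongue. Of 1531 genes in 7 receptor families, 1518 (99.2%) had closed promoters. Olfactory receptors alone accounted for 1094 closed promoters out of 1102 (99.3%, interval 98.6 to 99.6). Their median distance to the nearest peak of either list was 125 kb. Olfr225 had the nearest peak, at 1.23 kb, and Olfr1204 the most distant, at 1321 kb. Only 2 of the closed olfactory receptor genes held a peak in the gene body, which is short in this family, at a median of 0.95 kb. Whether the outer ends of these short genes are transcription starts was not tested.

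The 8 olfactory receptor promoters with a peak split into 3 that both lists covered, 3 found at E10.5 alone and 2 found at E11.5 alone. Olfr94 had the strongest E10.5 peak of these, with a signal of 4013, and a signal of 1818 at E11.5. Olfr1342 followed with 3553 at E10.5 and no E11.5 peak within 50 kb. Olfr658 had signals of 771 and 717 at the 2 stages, and Olfr9 531 and 221. Of the other 4, Olfr763 and Olfr95 had E10.5 signals of 315 and 217, and Olfr1507 and Olfr1033 had E11.5 signals of 235 and 608. With peaks of −log10 p of at least 5, 1098 of the 1102 were closed, which leaves 4 with a peak. Whether any of these peaks belongs to a neighbouring gene was not tested.

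Vomeronasal receptors of type 1, which detect small pheromones, were closed in 227 of 228 cases (99.6%), with a median distance of 167 kb. The exception, Vmn1r4, had peaks of signal 6234 at E10.5 and 6123 at E11.5 over its start. Type 2 receptors were closed in 119 of 121 cases (98.3%), with a median of 137 kb. Their exceptions were Vmn2r29, with signals of 4621 and 2872 in the 2 lists, and Vmn2r4, with 406 at E10.5 only. Taste receptors were closed in 37 of 38 cases (97.4%), with Tas1r1, a subunit of the umami receptor, as the exception. Tas1r3, the subunit shared by sweet and umami receptors, was closed, with its nearest peak at 3.68 kb. All 15 trace amine-associated receptors and all 7 formyl peptide receptors, which act in immune cells and the vomeronasal organ, were closed. Of 20 Mas-related receptors, which act in itch and pain neurons, 19 were closed. The exception was Mrgpre, with an E10.5 signal of 7394 and an E11.5 signal of 1172.

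**Figure D1:**
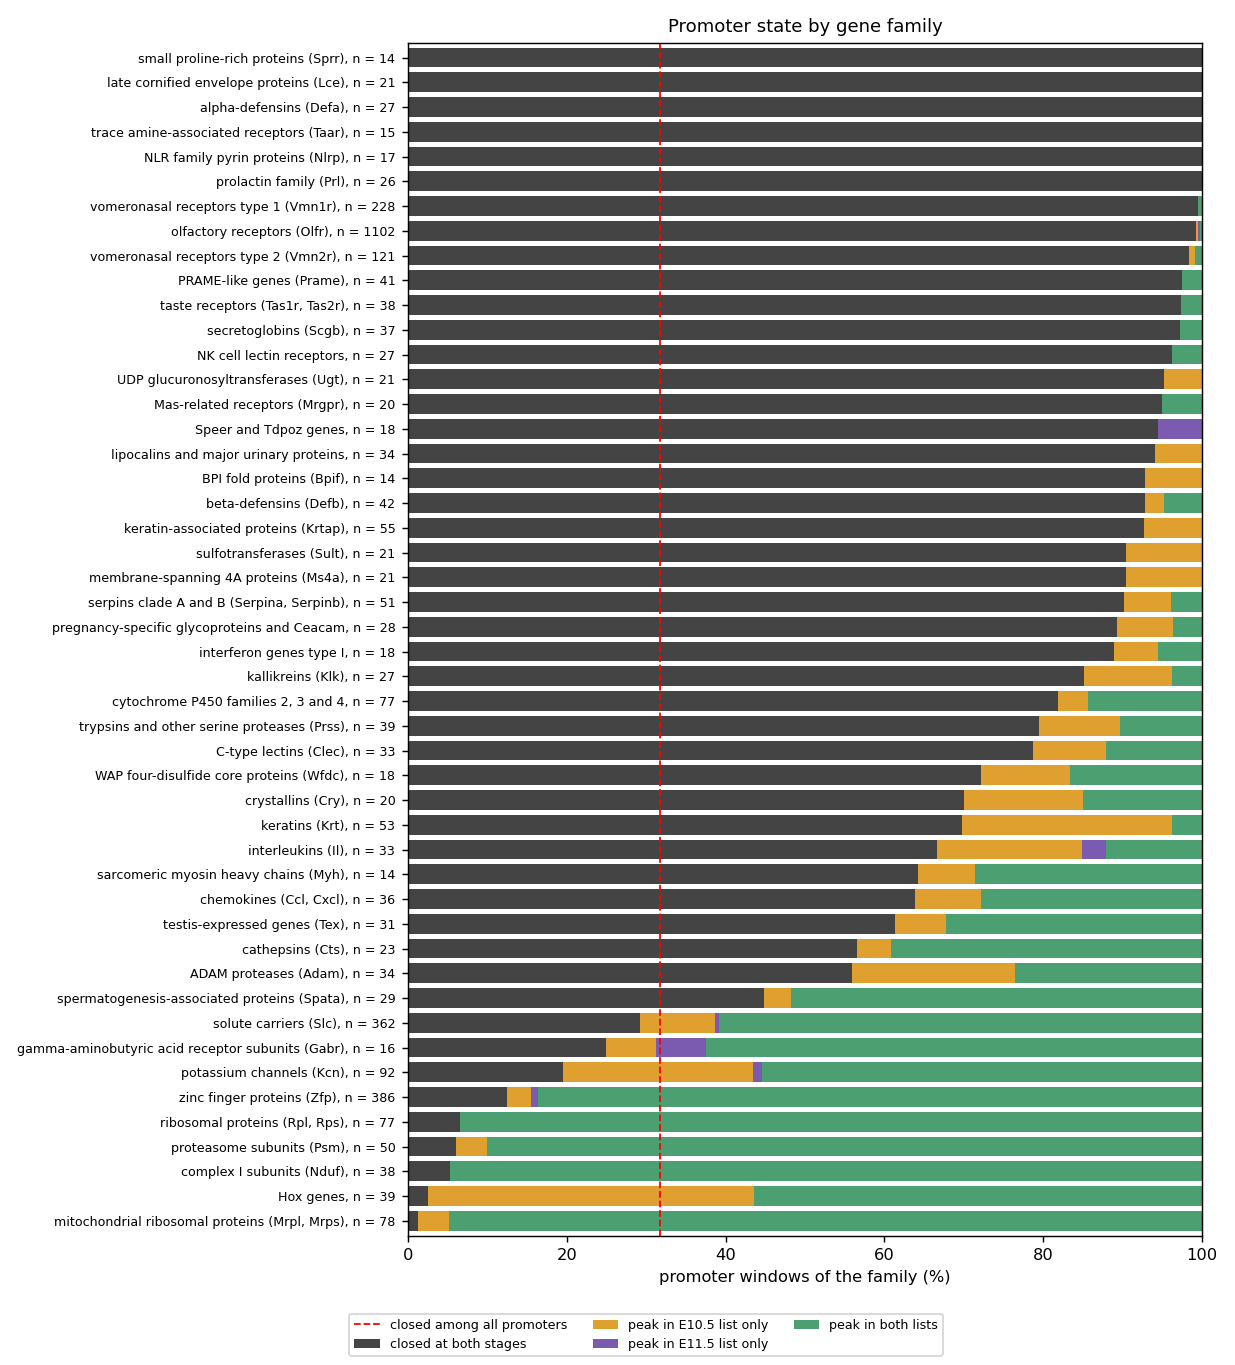
Horizontal bars give, for each listed gene family with at least 14 promoters, the percentage of promoter windows that were closed (dark), had a peak at E10.5 alone (orange), at E11.5 alone (purple) or in both lists (green). The dashed line marks the 31.8% closed among all promoters. Olfactory receptors (99.3% closed) stand near the top, keratins (69.8%) in the middle and Hox genes (2.56%) near the bottom.

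Skin and hair genes were closed in 129 of 152 cases (84.9%), and the families split. Keratins form the intermediate filaments of epithelia and hair, and 37 of 53 (69.8%, interval 56.5 to 80.5) had closed promoters. Of the 16 open ones, 14 had a peak at E10.5 alone and 2 at both stages. The pair in both lists, Krt8 and Krt18, are the keratins of simple epithelia. Krt5, a keratin of basal epidermis, had an E10.5 peak of signal 246 at its start, and its nearest E11.5 peak was 59806 bp away. Krt14, the partner of Krt5, had a peak of signal 320 at 892 bp, in the E10.5 list only. Closed keratins lay close to peaks, with a median of 10.1 kb. They ranged from Krt10, a keratin of the upper epidermis, at 1.02 kb to Krt31, a hair keratin, at 38.4 kb.

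Keratin-associated proteins, which cross-link hair keratins, were closed in 51 of 55 cases (92.7%). The 4 exceptions, Krtap17-1 (E10.5 signal 983), Krtap5-5 (982), Krtap10-4 (564) and Krtap5-1 (383), all had a peak in the E10.5 list only. With peaks of −log10 p of at least 5, 54 of the 55 were closed, and with the E10.5 list reduced to the number of E11.5 peaks by signal all 55 were. Late cornified envelope proteins and small proline-rich proteins build the barrier of the outer epidermis. All 21 of the former and all 14 of the latter were closed, with medians of 130 and 25.6 kb. Desmosomal cadherins, the adhesion molecules of desmosomes, were closed in 6 of 9 cases.

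Host defence genes were closed in 223 of 271 cases (82.3%). Alpha-defensins, antimicrobial peptides of the small intestine, were closed in all 27 cases, at a median of 151 kb from a peak. Defa21 was nearest, at 14.4 kb, and Defa2 farthest, at 332 kb. Of 42 beta-defensins, antimicrobial and sperm-coating peptides of epithelia, 39 (92.9%) were closed at a median of 27.1 kb, from Defb14 at 1.25 kb to Defb41 at 159 kb. The open ones were Defb11, with signals of 1385 and 1226 in the 2 lists, Defb10, with 638 and 312, and Defb29, with 346 at E10.5 only. Natural killer cell lectin receptors were closed in 26 of 27 cases, with Klre1 open. NLR proteins of the pyrin group, which act in inflammasomes and oocytes, were closed in all 17 cases. Of 18 type I interferon genes 16 were closed, of 33 interleukins 22, of 36 chemokines 23, and of 9 Toll-like receptors 3. The closed interleukins ranged from Il1b, a fever cytokine, at 1.02 kb from a peak to Il6 at 59.8 kb. Closed chemokines had a median of 6.33 kb.

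Families of secreted proteins and metabolic enzymes were closed in 370 of 428 cases (86.4%). Secretoglobins, small secreted proteins of airway, salivary and lacrimal glands, were closed in 36 of 37 cases and had the largest median distance of the 53 families, 480 kb. Of the 31 closed ones with a promoter sequence, 24 had more than 10% of their 31-base words repeated in the genome, and of 2 secretoglobins with no repeated word 1 was closed. The part of this repetition in the closed calls and in the distance was not tested. The nearest was Scgb1a1, a product of airway club cells, at 4.98 kb and the farthest Scgb1b29, at 1233 kb. All 26 prolactin family genes, many of them placental hormones, were closed. Serpins of clades A and B, inhibitors of proteases, were closed in 46 of 51 cases (90.2%). Of the open ones Serpinb6a had the highest E10.5 signal, 4884. Cytochrome P450 genes of families 2, 3 and 4, which oxidize steroids, fatty acids and drugs, were closed in 63 of 77 cases (81.8%). They ranged from Cyp2c39 at 4.19 kb to Cyp2a4 at 446 kb. Of 34 lipocalin and major urinary protein genes 32 were closed, the exceptions being Lcn6 and Lcn2. UDP glucuronosyltransferases were closed in 20 of 21 cases and sulfotransferases in 19 of 21.

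Germ line families were closed in 108 of 153 cases (70.6%). PRAME-like genes, expressed in germ cells and early embryos, were closed in 40 of 41 cases at a median of 293 kb. Pramel12 was the exception, with signals of 3147 and 3215. Speer and Tdpoz genes were closed in 17 of 18 cases. The testis-expressed Tex genes, named for where their transcripts were found and not for a shared sequence, were closed in 19 of 31 cases, and the Spata genes in 13 of 29. Among families of other tissues, crystallins of the lens were closed in 14 of 20 cases and sarcomeric myosin heavy chains in 9 of 14. Potassium channels were closed in 18 of 92 (19.6%), and 22 of their 74 open promoters had a peak in the E10.5 list only.

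Across the 53 families, 7 were closed in full and 24 were at least 90% closed. The families were chosen with earlier results of these data known, so these counts describe the chosen set only. Closed promoters in these families, leaving out 7 reference families, numbered 2393, which is 37.0% of all closed promoters. The remaining genes belong to no listed family or to the reference families. Of the promoters outside every listed family, 3906 of 16644 (23.5%) were closed. Genes with provisional names (Gm numbers and Rik clones) made up 809 of the closed promoters. Of all provisional names 59.4% were closed, against 29.8% of the other genes.

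The reference families comprise genes used in most cells, Hox genes of limb patterning, zinc finger genes and solute carriers. Of their 1030 promoters, 166 (16.1%) were closed. The only closed member of 39 Hox genes was Hoxb6, whose outer start lay 1.40 kb from an E10.5 peak and 7171 bp from an E11.5 peak. The only closed member of 78 mitochondrial ribosomal protein genes was Mrpl22, with a peak at 1.12 kb. Of 77 cytosolic ribosomal protein genes 5 were closed: Rps2 at 1.23 kb from a peak, Rpl3l at 3001 bp, Rpl32l at 12.9 kb, Rpl39l at 22.2 kb and Rpl10l at 25.2 kb. All but Rps2 carry the suffix l, which marks genes related to a ribosomal protein gene. Rpl3l is a muscle form and Rpl10l and Rpl39l are testis forms. Of 50 proteasome genes 3 were closed: Psmf1, an inhibitor, Psmb11, the catalytic subunit of the thymus proteasome, and Psme2b. In Mrpl22, Rps2 and Psmf1 the only RefSeq start lay over 1 kb from the outer end and had a peak within 1 kb. Of 38 complex I genes 2 were closed, Ndufb4b and Ndufb4c. Of 386 zinc finger genes 48 (12.4%) were closed. For 22 of the 48 a peak lay within 1 kb of a RefSeq start more than 1 kb from the outer end. Among zinc finger promoters with no 31-base word repeated in the genome, 5 of 175 (2.86%) were closed. That count covers only promoters with a RefSeq sequence starting within 250 bp of the outer end. Of the 48 closed ones 21 had such a sequence, and 12 of the 21 had more than 10% of words repeated. Of 362 solute carriers 106 (29.3%) were closed.

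Lists of genes typical of 14 other organs and cell types gave 97 closed promoters of 138 (70.3%, interval 62.2 to 77.3). All 13 lymphocyte genes, such as Cd4 and Cd8a, coreceptors of T cells, were closed, with the nearest peaks of these 2 genes 11.9 and 17.4 kb away. All 5 mammary gland genes were closed, from Lalba at 1.39 kb to Csn3, a casein, at 237 kb. Of 14 pancreas genes 12 were closed. Among them were the insulin genes Ins2, with a peak at 3.57 kb, and Ins1, at 90.6 kb. The open ones, Ppy and Sst, had E10.5 peaks only. Of 16 liver genes 11 were closed, from Hpx at 3.01 kb to Serpina1a at 132 kb, and Alb, the serum albumin gene, lay 6.44 kb from a peak. Of 9 testis genes 8 were closed, among them the protamines Prm1 at 4.23 kb and Prm2 at 2.92 kb.

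Neuronal genes are 1 of these 14 lists and differed from those named above. Of 11, among them Syt1, Snap25 and Gad1, 0 were closed, with an upper interval bound of 25.9%. Of 7 heart genes 3 were closed, Myl2 at 1.32 kb, Tnni3 and Nppa, a natriuretic peptide, at 3.72 kb. The other 4 had a peak in the E10.5 list only. Of the 41 open promoters in the organ lists, 24 had a peak at E10.5 alone and 17 at both stages. Neuronal genes made up 1 of these 24 and 10 of these 17.

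The distance from a closed promoter to the nearest peak of either list had a median of 18.8 kb, with quartiles of 5.41 and 87.2 kb. It ranged up to 1404 kb. By construction it could not fall under 1 kb. The nearest peak lay at 1 to 2 kb for 583 promoters (9.02%), 2 to 5 kb for 945 (14.6%) and 5 to 10 kb for 858 (13.3%). No peak lay within 10 kb of 4079 promoters (63.1%), nor within 100 kb of 1496 (23.1%). The nearest peak belonged to the longer E10.5 list for 5229 (80.9%) and to the E11.5 list for 1158, with 78 ties. Taken alone, the E10.5 list gave a median of 19.8 kb and the E11.5 list 40.5 kb. Peaks lay in the gene body, away from the closed start, for 1958 of the closed promoters (30.3%).

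Distance differed widely between the groups of families. The median was 127 kb for sensory receptors, 38.6 kb for secreted proteins and enzymes, 26.6 kb for skin and hair genes, 22.9 kb for host defence genes and 8.46 kb for genes of other tissues. It was 9.82 kb for genes outside every listed family and 6.88 kb for the reference families. The 5 most isolated promoters lay side by side on chromosome 7. They were Vmn1r129 (1404 kb), Vmn1r128 (1393 kb), Vmn1r127 (1363 kb), Gm6882 (1347 kb) and Vmn1r126 (1345 kb). They share 1 interval between peaks, which runs from the E10.5 peak at chr7:19956403-19956811 to the E10.5 peak at chr7:22774864-22775259.

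**Figure D2:**
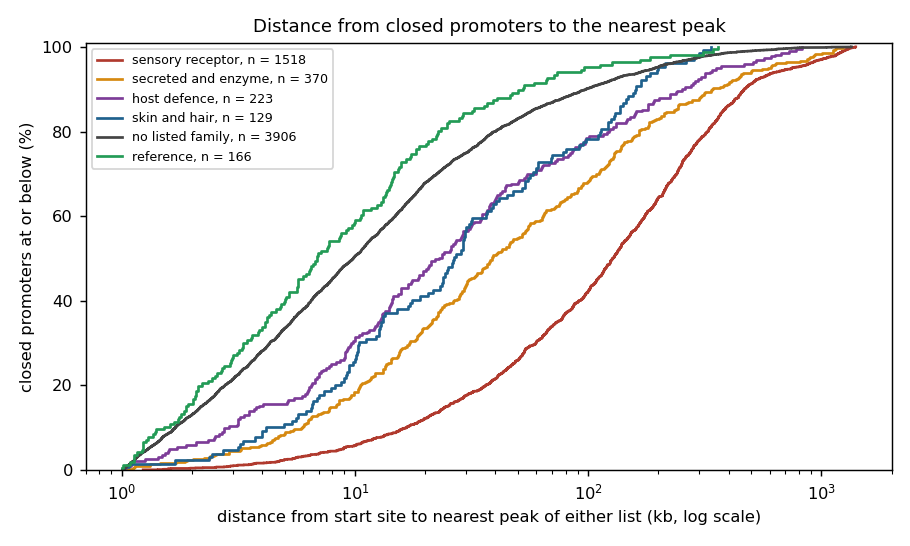
Cumulative percentage of closed promoters (vertical axis) against the distance from the start site to the nearest peak of either list in kb (horizontal axis, log scale), 1 line per group of families. The sensory receptor line (median 127 kb) lies to the right of the line for genes in no listed family (median 9.82 kb).

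For some closed promoters the gene had a RefSeq start away from the outer end. RefSeq promoter entries gave a start for 5345 closed genes, and 1041 of these had a start more than 1 kb from the outer end. Such a start is called a further start here, also where it was the gene's only RefSeq start, as for Hif1a and Tgfb2. In those genes the closed outer end had no RefSeq start within 1 kb. At 615 of the 1041 (59.1%) a peak lay within 1 kb of such a start. For 610 of these genes a peak there was in the E10.5 list. Their outer end and the open start with the highest E10.5 signal were a median of 5.54 kb apart. By E10.5 signal at the open start the highest 5 were Eva1b (24115), Trip10 (23246), Tenm4 (21638), Pdgfa (18253) and Ubtf (18005), named after their values were seen. Pdgfa, a growth factor gene, had its closed outer end at position 139000792 of chromosome 5 on the minus strand, and was open at an inner start 6.51 kb away. Tenm4, a teneurin of neurons and mesenchyme, was open 40.4 kb inside its outer end. For these genes a closed outer end describes that end and not the gene. None of the closed olfactory receptors, keratins or defensins had an open further start. Only a gene with a further start could have an open one, and how many members of these families had one was not counted. Closed olfactory receptor genes, with a median length of 0.95 kb, leave little room for such a start. Nothing is therefore read from these counts of 0.

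Closed promoters lay next to each other along the chromosomes. A run here is an unbroken series of neighbouring closed promoters in the order of start sites. There were 2643 runs, of which 1774 held a single promoter (27.4% of the closed promoters). In runs of at least 5 lay 3102 promoters (48.0%), in 216 runs. In runs of at least 10 lay 2257 (34.9%), in 86 runs, and in 6 runs of at least 50 lay 529 (8.18%). Promoters open in both lists also lay together, with 62.1% in runs of at least 5 of their own class, but their longest run had 29 promoters. Olfactory receptors led 31 of the 86 runs of at least 10. In runs of at least 5 the closed promoters had a median distance of 84.5 kb to a peak, and the others 7.10 kb. Part of that contrast follows from the rule, as neighbours within a run have no peak in their windows. Among genes outside the listed families other than reference families, ordered by themselves, 22.8% of closed promoters lay in runs of at least 5.

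The longest run held 192 closed promoters, from Olfr1034 to Olfr1274 at chr2:86046444-90400640. Of these 190 were olfactory receptors. Its 4.35 Mb contained 6 E10.5 peaks and 3 E11.5 peaks, and the open promoter before it was Olfr1033, an olfactory receptor with a peak at E11.5 only. The second run, from Igsf23 to Vmn1r183 at chr7:19953654-24054774, held 107 promoters, 86 of them vomeronasal receptors of type 1, with 2 E10.5 peaks and 0 E11.5 peaks in 4.10 Mb. The third, from Olfr557 to Olfr67 at chr7:102698216-103791830, held 63 promoters and ended beside Hbb-bt, an adult beta globin gene whose promoter had a peak at E11.5 alone. The run from Olfr765 to Olfr827 on chromosome 10 and the run from Krtap24-1 to Krtap11-1 on chromosome 16 held 57 each.

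Skin and defence genes formed long runs of their own, named here for the families under study and not by length. The run from Krtap24-1 to Krtap11-1, at chr16:88612279-89571183, lay between Cldn8 and Tiam1 and held 24 keratin-associated proteins, with 5 E10.5 peaks and 1 E11.5 peak. The run from Prr9 to Lce3f on chromosome 3 held 40 promoters in the epidermal differentiation complex, a cluster of skin barrier genes, 20 of them late cornified envelope genes, and had 7 peaks of each list in 0.868 Mb. It was bounded by Lor, the cornified envelope protein loricrin, whose promoter was open. The run from Krt40 to Krtap16-1 on chromosome 11 held 38 promoters. The run from Defb33 to Defb2 on chromosome 8 held 35, among them all 27 alpha-defensins, and contained 9 E10.5 peaks and 1 E11.5 peak. It ended at Defb10, whose promoter was open. All 32 promoters from Scgb2b1 to Scgb1b30 on chromosome 7 were secretoglobins, with 1 E10.5 peak in 2.83 Mb. Tyr, the pigment enzyme tyrosinase, closed a run of 35 that began with Olfr291.

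Peaks were sparse inside these runs. The 86 runs of at least 10 spanned 95.8 Mb and contained 312 E10.5 peaks and 138 E11.5 peaks, or 3.26 and 1.44 per Mb. Over the autosomes the lists had 40.7 and 15.1 peaks per Mb. Since a run is defined by promoters without peaks, part of this difference follows from the rule. No peak of either list lay between the first and last start site of 13 of the 86 runs.

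**Figure D3:**
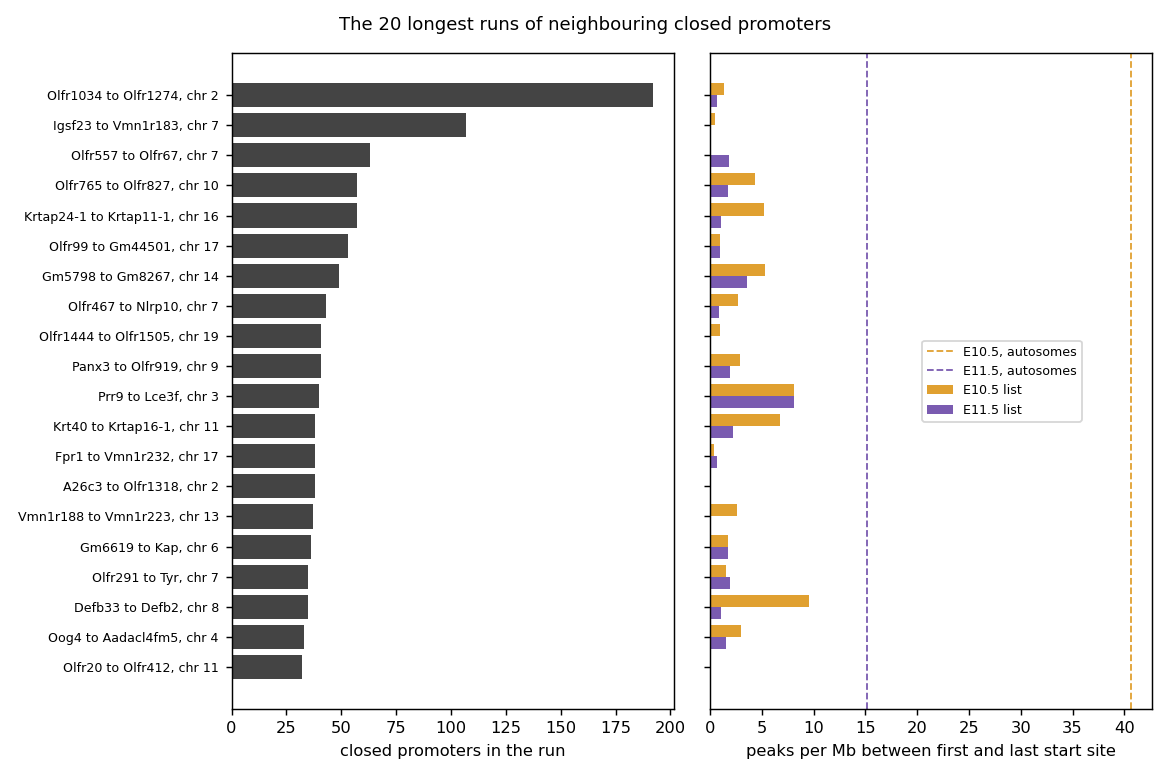
The left panel gives the number of closed promoters in each of the 20 longest runs, and the right panel the number of E10.5 (orange) and E11.5 (purple) peaks per Mb between the run's first and last start site, with dashed lines at the autosomal 40.7 and 15.1 per Mb. The longest run, Olfr1034 to Olfr1274, has 192 promoters and 1.38 E10.5 peaks per Mb.

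The share of closed promoters varied between chromosomes. It was highest on chromosome 7, with 933 of 2013 (46.3%, interval 44.2 to 48.5), and lowest on chromosome 12, with 144 of 668 (21.6%, interval 18.6 to 24.8). Chromosome 7 alone held 14.4% of all closed promoters, 238 of them olfactory receptors. Without chromosome 7 the closed share was 30.2%, the share in runs of at least 5 was 44.2% and the median distance 16.8 kb. Outside the listed families, reference families counted as outside, the closed share ran from 17.9% on chromosome 2 to 33.5% on chromosome 14. Chromosome 2 held 286 closed olfactory receptors, and its share over all genes was 33.3%.

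**Figure D4:**
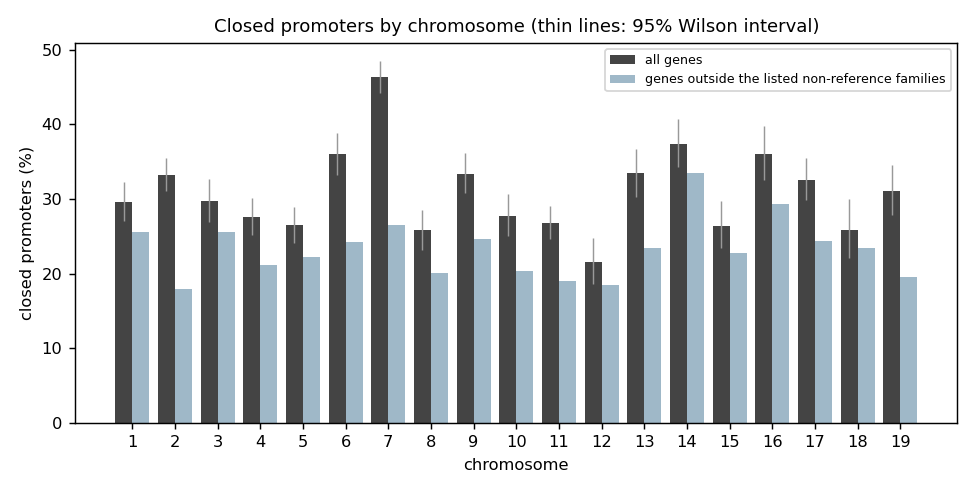
Percentage of promoters that were closed on each autosome, for all genes (dark bars, with thin lines for the 95% Wilson interval) and for genes outside the listed families other than reference families (pale bars). Chromosome 7 stands at 46.3% over all genes, and chromosome 14 is highest among the pale bars, at 33.5%.

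Base composition was not used by the rule and is described next. A RefSeq promoter sequence (250 bases before to 50 after a start) lay within 250 bp of the start site for 4435 closed promoters. That is 68.6%, under the 80% needed for a statement on all of them, so a check over all closed promoters is void on this match and the values below hold for the matched ones. The CpG ratio is the number of CG dinucleotides over the number that the C and G content would give. Its median was 0.152 in closed promoters (quartiles 0.0771 and 0.260), 0.313 in those with a peak at E10.5 alone and 0.779 in those open in both lists. The median G and C content was 44.3% in closed promoters and 61.7% in those open in both lists. No CG at all occurred in 16.4% of closed promoters and 0.145% of those open in both lists. It was absent in 2.45% of those with a peak at E10.5 alone. Among the 51 matched promoters with a peak at E11.5 alone, the median ratio was 0.215 and 5.88% held no CG. Over all members, matched or not, the median gene length was 7.96 kb with a closed promoter and 24.0 kb with one open in both lists. It was 15.9 kb with a peak at E10.5 alone and 15.1 kb at E11.5 alone. Closed promoters of the listed families other than reference families had a median of 1.07 kb. Those in no listed family had 14.1 kb.

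With the nearest RefSeq start of each gene at any distance, 82.7% of closed promoters and 80.5% of those open in both lists had a sequence. The median ratios were then 0.172 and 0.773. Leaving out closed genes with a peak at a further start, the closed median was 0.154. Among the 13556 promoters of any class matched within 250 bp, the closed share was 86.8% among promoters with a ratio under 0.2, 60.1% between 0.2 and 0.4, 17.5% between 0.4 and 0.6, 3.36% between 0.6 and 0.8 and 0.408% at 0.8 or more. The closed olfactory receptors had sequences in 82.1% of cases and a median ratio of 0.106, and 302 of the 898 held no CG. Closed keratins, of which 22 had a sequence, had a median ratio of 0.250. Closed promoters outside every listed family had a median of 0.179, so the low ratio was not limited to the listed families. This group still holds clustered genes, since 8 of the 86 runs of at least 10 had no member of a listed family.

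**Figure D5:**
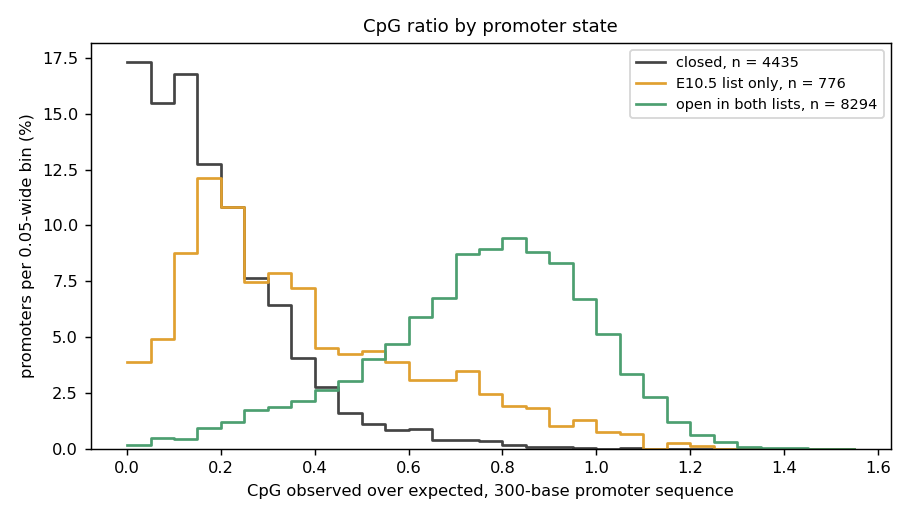
Percentage of promoters (vertical axis) in bins of CpG observed over expected (horizontal axis) for closed promoters, promoters with a peak in the E10.5 list only and promoters open in both lists. Closed promoters lie mostly at low ratios (median 0.152) and promoters open in both lists at high ratios (median 0.779).

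A ratio of at least 0.6 was found in 107 closed promoters (2.41%) matched within 250 bp, against 76.7% of those open in both lists. With the nearest RefSeq start at any distance the shares were 7.65% and 75.1%. Such a start can lie outside the closed window. Leaving out closed genes with a peak at a further start, the share among closed promoters was 2.37%. The highest 5 were Erfl (1.06), Dmrtc2 (0.954), Prr23a1 (0.920), Gm40814 (0.918) and Tex12 (0.915). Dmrtc2 and Tex12 act in meiosis of germ cells, Tex12 as a part of the synaptonemal complex. Next came Stk31 (0.908), a testis kinase, Pax5 (0.882), the B cell regulator, Ctnnd1 (0.874), the catenin p120, and Sycp1 (0.874), also of the synaptonemal complex, which were named after their values were seen. The Erfl sequence printed above is of this kind. These 107 promoters had a median distance of 8.58 kb to a peak, and 50 of them were single closed promoters between open neighbours. At 9 of them a further start of the gene had a peak.

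Short motifs were counted in the matched sequences on both strands. TATAAA, the core of the TATA box that positions transcription start, occurred in 29.7% of closed promoters, 6.58% of those open in both lists and 14.5% of all promoters. GGGCGG, the GC box, holds a CG and so overlaps the CpG measure. It occurred in 7.80% of closed promoters, 68.9% of those open in both lists and 46.7% of all. CCAAT, the CCAAT box, occurred at nearly equal shares of 41.0%, 40.4% and 40.2%. TAATTA, a core bound by many homeodomain proteins, occurred in 10.2%, 2.13% and 4.88%, and in 19.0% of closed olfactory receptors, whose median G and C content was 35.0%. With a peak at E10.5 alone the shares were 12.6% for TATAAA, 33.2% for GGGCGG, 32.9% for CCAAT and 3.74% for TAATTA. With a peak at E11.5 alone, where 51 promoters had a sequence, they were 15.7%, 19.6%, 49.0% and 9.80%. The TAATTA share of that small class was thus close to that of closed promoters. A match describes letters only.

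The position of TATAAA set the hair genes apart from the receptors in these counts. On the sense strand, beginning 40 to 20 bases before the start, it occurred in 28 of 47 closed keratin-associated protein promoters and 10 of 22 closed keratins, against 1.45% of closed olfactory receptors, 6.85% of closed promoters and 3.20% of all. No test was made of these shares, since members of a family share sequence by descent. Whether the RefSeq starts of the olfactory receptors, with a median gene length of 0.95 kb, are transcription starts was not tested either. The 60 bases before the start of 4 closed keratin-associated proteins show the placement, with TATAAA in capitals. They were chosen as those of the 28 with the most distant peaks, and all lie in the chromosome 16 run.
Krtap6-3: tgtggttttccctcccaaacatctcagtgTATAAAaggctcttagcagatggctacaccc
Krtap20-2: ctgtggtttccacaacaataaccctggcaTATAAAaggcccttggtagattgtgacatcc
Krtap6-5: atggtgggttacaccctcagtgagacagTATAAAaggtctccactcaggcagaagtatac
Krtap22-2: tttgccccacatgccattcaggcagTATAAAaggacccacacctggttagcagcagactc

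These lie at chr16:89083964-89084023 and chr16:89205801-89205860 on the plus strand and chr16:89047900-89047959 and chr16:89010760-89010819 on the minus strand, in that order, on GRCm38.p6. TATAAA begins 31, 31, 32 and 35 bases before the RefSeq start. In each of the 4 it is followed by the letters agg.

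Near-identical copies can take up reads that cannot be placed, which bears on whether a peak can be listed. The share of 31-base words of a promoter sequence that occur more than once in the genome was counted on NCBIM37, an older build. More than 10% of words were repeated in 30.7% of closed promoters and 3.99% of those open in both lists. The share was 6.96% with a peak at E10.5 alone and 31.4% with a peak at E11.5 alone (16 of 51 matched). A high share of repeated words was thus not particular to closed promoters. The closed share was 77.3% among promoters with more than 10% of words repeated and 23.7% among the 10833 with none. Among promoters with no repeated word, 513 of 515 olfactory receptors, 44 of 44 vomeronasal receptors of type 1 and 33 of 35 keratin-associated proteins were closed. The counts were 22 of 29 for keratins and 17 of 24 for the cytochrome P450 genes. They were 3 of 4 for type I interferons, 1 of 2 for secretoglobins and 5 of 175 for zinc finger genes. Alpha-defensins had no promoter without repeated words, and all 16 with a sequence had more than 10% repeated. How reads with several matches were treated is not given in the sources used here, and its part in the closed calls of such genes was not tested.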

How the data were processed

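The deposited files are 1 peak list per stage in narrowPeak format on mm10, per the file headers, each named for both replicates. The submitters' processing notes name cutadapt, Bowtie2, SAMtools, deepTools and Genrich with no role or version. Filters, Tn5 shift, handling of reads with several matches and the way replicates were joined are not given in the sources used here. The authors' values for each peak are a signal, which grows with peak width, a −log10 p-value and a score. The deposited score was not used further.

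Gene ends came from a RefSeq table of GRCm38.p6. Of 20665 autosomal protein-coding genes, 105 placed before 3 Mb, where alternate loci are listed, were left out. Strand came from the RefSeq promoter table for 16457 genes and from GENCODE M1 for 3894, and 209 genes had none. Where a gene had both sources, 44 of 15748 disagreed. Distances, overlaps (at least 1 bp), runs and CpG ratios were computed in Python 3.11.15 with pandas 2.3.3 and NumPy 2.4.6, and the distance, overlap and run steps were tested on simulated data. Repeated words were counted with Numba 0.67.0.

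Each list joins both replicates, so depth per sample is unknown and no test between samples was possible. Members, gene families and gene lists were chosen with earlier results of these data known. The rule for named genes takes the nearest and farthest closed member of each family, up to 4 open members by E10.5 signal of families at least 90% closed, ends of the 5 longest runs, the 5 most isolated promoters, closed reference genes, promoters on either side of the 1 kb limit and the 5 highest CpG ratios. An item on the closed side of the limit is not reported here. Other genes were named after their values were seen. Alternatives changed the window, peak threshold, start site, gene set and sequence filter. Those on repeated words, further starts, RefSeq strands, genes before 3 Mb, organ lists and runs outside families were added after seeing the data.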

Additional observations from a re-analysis of the deposited data

How the results depend on the processing

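The closed share was 31.8%. It was 34.0% with a 500 bp window and 28.9% with 2 kb, 36.0% with peaks of −log10 p of at least 5, 36.1% with the E10.5 list reduced to the number of E11.5 peaks by signal and 35.1% with peak summits. It was 33.3% with X and Y, 29.0% with both gene ends free of peaks, 29.8% without provisional names and 33.6% with overlapping windows counted once. Alternatives chosen after seeing the data gave 23.7% for promoters with no repeated word and 32.5% with RefSeq strands only. Among the genes of that last setting, it was 28.7% when closed genes with an open further start were no longer counted as closed. The organ lists went from 70.3% to 77.5% (500 bp), 65.2% (2 kb), 78.3% (−log10 p) and 82.6% (matched number). Keratins went from 69.8% to 75.5% (500 bp), 64.2% (2 kb), 86.8% (−log10 p) and 88.7% (matched number). The median distance was 40.5 kb to the E11.5 list alone. The share in runs was 50.1% with 2 kb, 46.5% with −log10 p of at least 5 and 22.8% for genes outside the listed families. Families at least 90% closed numbered 24 of 53, and 21 to 29 under other windows and peak thresholds. They numbered 20 of the 49 that had promoters with no repeated word. The cause of these shifts was not tested, beyond the windows, peaks and genes that each setting adds or removes. No paired analysis was possible because the replicates of a stage share 1 list, so none could be left out either.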
